A study of Mus musculus with 8 samples.

Results

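Introns hold many of the enhancers of the mouse genome, and the regions described here are the open-chromatin regions that lie in the second or a later intron of a gene, away from any promoter. Histone H3 acetylated at lysine 27 (H3K27ac), a mark of active enhancers and promoters, was measured there in microglial nuclei of mice with and without Grn, the gene of progranulin. A region belonged to the set when the deposited annotation placed it on chromosomes 1 to 19 in an intron other than intron 1, more than 1000 bp from the nearest annotated start site, and outside annotated repeats and CpG islands. The rule used no measured value and was met by 25437 of 129304 listed regions, or 19.7%. Of 31758 autosomal later-intron regions, it left out 497 within 1000 bp of a start, 5553 in repeats and 271 in CpG islands.

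Both groups were C57BL/6 mice aged 2 years. The wild-type group (WT) and the group lacking Grn (GrnKO) each gave 2 H3K27ac libraries and 2 input libraries, so 8 libraries entered. Brain nuclei were fixed and sorted as PU.1+, OLIG2- and NEUN-, a gate that takes myeloid nuclei and leaves out neurons and the oligodendrocyte lineage. Each library came from nuclei pooled from 2 mice, so the difference between mice within a pool was not measured. The labels do not say how the Grn allele was made or in which cells it is lost.

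Microglia are the resident macrophages of the brain. PU.1, RUNX, IRF, AP-1, C/EBP and MEF2 factors bind their enhancers, and acetylation of the flanking nucleosomes marks the enhancers that are in use. Progranulin is secreted and also taken to lysosomes, and the MiT/TFE factors TFEB, TFE3 and MITF switch on lysosomal genes through a CACGTG box. An intronic enhancer can act on the gene it lies in or on a neighbour, so the gene that holds a region is called its host here and the gene with the nearest start, given for some regions, can be another. Regions were assigned to 7620 transcripts, of which those of 25352 regions (99.7%) matched 6963 host genes. The host was also the nearest gene for 16033 of these regions and was not for 9319.

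Some later introns contain the start of another transcript or of a shorter form of the host. RefSeq start windows (GRCm38.p6), which run from 250 bp before to 50 bp after a start, lay whole inside 125 of the regions, with 130 windows in all, and 12 of the windows belonged to the host gene itself. Of these 125 regions 81 had enough tags for the test described below, and 8 were higher and 4 lower in GrnKO, or 14.8% called, against 6.8% higher and 2.92% lower (9.72% called) of all regions tested. The 4 windows shown were picked, after their values were seen, from the changed regions with a match to a factor of the microglial set. Each is written 5′ to 3′ on the strand of its transcript, and the capitals mark the match: the PU.1 string GAGGAAGT, in either orientation, in Gm30926 and Gm15523, the RUNX string TGTGGTT in Asb2, and an IRF string in Gm30281 (GAAA, any 2 bases, then GAAA).
Gm30926, minus strand, chr14:22801315-22801614: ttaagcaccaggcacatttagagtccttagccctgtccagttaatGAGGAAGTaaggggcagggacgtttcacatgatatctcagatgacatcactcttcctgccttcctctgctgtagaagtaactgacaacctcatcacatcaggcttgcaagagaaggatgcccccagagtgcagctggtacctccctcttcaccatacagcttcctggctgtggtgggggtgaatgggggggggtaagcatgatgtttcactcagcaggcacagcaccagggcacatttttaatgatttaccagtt
Gm30281, plus strand, chr16:92761959-92762258: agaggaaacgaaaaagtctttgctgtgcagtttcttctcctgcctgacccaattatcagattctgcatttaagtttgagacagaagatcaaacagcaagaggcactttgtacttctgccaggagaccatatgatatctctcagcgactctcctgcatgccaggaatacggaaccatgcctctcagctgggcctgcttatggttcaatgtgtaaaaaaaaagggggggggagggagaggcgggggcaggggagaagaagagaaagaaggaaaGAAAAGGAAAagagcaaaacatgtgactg
Asb2, minus strand, chr12:103338341-103338640: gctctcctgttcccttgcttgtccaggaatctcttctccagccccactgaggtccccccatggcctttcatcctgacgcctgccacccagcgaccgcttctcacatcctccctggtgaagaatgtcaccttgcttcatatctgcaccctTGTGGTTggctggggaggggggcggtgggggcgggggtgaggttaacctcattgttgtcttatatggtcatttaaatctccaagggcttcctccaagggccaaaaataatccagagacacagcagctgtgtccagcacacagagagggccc
Gm15523, plus strand, chr12:103336623-103336922: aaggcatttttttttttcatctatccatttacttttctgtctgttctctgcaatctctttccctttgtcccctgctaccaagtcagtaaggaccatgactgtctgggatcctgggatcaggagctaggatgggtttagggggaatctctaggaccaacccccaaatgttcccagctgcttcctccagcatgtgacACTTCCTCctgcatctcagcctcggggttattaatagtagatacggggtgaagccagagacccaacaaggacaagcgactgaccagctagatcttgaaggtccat

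The window of Gm30926, a predicted gene, lies in intron 5 of Lrmda (nearest start 4930405A10Rik), and its region had levels of 30.1 and 47.7 in the WT libraries and 175 and 239 in the GrnKO libraries. A level is the number of tags in the 800 bp region, scaled by the authors to 10000000 tags per library and here divided by a TMM factor that evens out the libraries. The log2 change, on the scale of level + 1, was 2.40 ± 0.26 (SE, limma adjusted p = 1.82e-05). The window of Gm30281 lies in intron 2 of Runx1, which encodes a transcription factor of blood and myeloid cells. Its region held at most 3 tags in either WT library (levels 1.18 and 0.52) and had levels of 32.5 and 20.5 in GrnKO, so that the mark was near the floor of detection in WT. Asb2, the substrate-recognition subunit of an E3 ubiquitin ligase, has an inner start in the intron 2 of its longer transcript. Levels at that start were 313 and 392 in WT against 214 and 207 in GrnKO, and at the Gm15523 start in intron 3 of the same gene 363 and 427 against 257 and 269.7. Both Asb2 regions fell, by 0.73 ± 0.16 (adjusted p = 0.0054) and 0.58 ± 0.14 (adjusted p = 0.0145) on the log2 scale. Neither passed under the authors' scaling alone (adjusted p = 0.295 and 0.509) or without GrnKO replicate 1 (0.0884 and 0.245) or 2 (0.0970 and 0.138), and the Runx1 region did not pass without either GrnKO replicate (0.332 and 0.135). Over the 81 tested regions with a start inside, the counts were 10 higher and 0 lower under the authors' scaling. They were 10 and 8 with the replicate number as a block and 5 and 5 with DESeq2 on recovered reads. With no filter on tag counts, 5 of 124 were higher and 2 lower. Calls were fewer without either GrnKO replicate and more without either WT replicate.

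The motif strings were searched on both strands of all 32851 RefSeq windows and of the 130 windows inside the regions. The PU.1 string was in 9 of the 130 (6.92%) and in 3.20% of all windows. The RUNX string TGTGGTT was in 7.69% of the 130 and 5.27% of all, the C/EBP string TTGCNNAA in 13.8% and 10.8%, the AP-1 string TGANTCA in 8.46% and 7.81%, and the IRF string in 6.15% and 3.44%. The MiT/TFE box CACGTG went the other way, with 4 of the 130 (3.08%) against 7.15% of all windows. These counts are small, and a match describes letters and not binding. The windows were not matched for base content: the rule left out regions in CpG islands, while the 32851 windows came from all RefSeq starts. CACGTG itself holds a CG. Whether this sets the differences in share was not tested. One of the 4 boxes was in the window of Gm32315, in intron 8 of Lrrc27 (nearest start Pwwp2b), whose region had levels of 8.60 and 0 in WT and 29.4 and 20.3 in GrnKO (adjusted p = 0.0341, with 0.120 under edgeR, 0.672 under DESeq2, and 0.425 and 0.225 without GrnKO replicate 1 or 2).

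The H3K27ac libraries held 15491642.5 to 20030832 tags and the inputs 4078179 to 14415969. Intervals for counting error are not given for single regions, and 3 tags, the floor used here, correspond to 1.5 to 1.94 scaled tags in the H3K27ac libraries. The labels were checked at Grn: its promoter region fell from a mean level of 631 in WT to 6.39 in GrnKO. A region in Grn intron 7, which belongs to the set, had levels of 0.79 and 6.02 in WT and 33.4 and 46.1 in GrnKO (log2 change 3.51 ± 0.67, adjusted p = 0.0025). It is named as a check on the labels, outside the rule for named regions, and it did not pass without GrnKO replicate 1 (adjusted p = 0.0837) or 2 (0.154). Across tested later-intron regions replicates of one genotype resembled each other more than libraries of different genotypes did (Pearson correlation of log2 levels 0.89 for WT, 0.94 for GrnKO and 0.83 to 0.87 across). WT replicate 1 had a TMM factor of 0.83 against 1.04 to 1.08 in the other libraries.

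As a class, later-intron regions carried a similar part of the mark in both genotypes. They held 19.6% and 19.8% of the tags in listed autosomal regions in WT and 19.8% and 19.9% in GrnKO, and the groups did not separate beyond the replicate spread (difference 0.13 percentage points, exact permutation test, two-sided, p = 0.667, where 2 against 2 libraries can reach no lower than 0.3333). The tags in later-intron regions were 1.40 ± 0.012 times those in first-intron regions in WT and 1.39 ± 0.0058 times in GrnKO (SD, n = 2 each, exact permutation p = 0.667). Relative to intergenic regions within 50 kb of a gene the ratios were 1.17 ± 0.0057 and 1.18 ± 0.0081 (exact permutation p = 0.667). In the inputs the share was 20.7% to 22.1%. The median ratio of H3K27ac to input over the regions, with 1 added to both, came to 6.29 ± 2.11 for the WT pools and 5.66 ± 2.23 for the GrnKO pools (SD, n = 2). It was 18.8 and 19.5 over tested regions only, and 2.24 and 2.25 with 5 added instead, and the median input value was 0 in 3 of the 4 inputs.

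Individual regions changed in both directions, and most of those that changed gained the mark. Of the 25437 regions 15413 (60.6%) passed a filter on low tag counts and were tested, and 1756 of them (11.4%) differed between genotypes at an adjusted p under 0.05, against 9.72% of all 80728 regions tested. Higher levels in GrnKO were found at 1265 regions (8.21%, against 6.8% of all regions) and lower levels at 491 (3.19%, against 2.92%). The median log2 change over the tested later-intron regions was -0.0056, beside -0.0020 over all regions. First-intron regions had 860 higher and 322 lower of 11302 tested (10.5% called), and intergenic regions within 50 kb had 1053 higher and 436 lower of 11617 (12.8% called). The differences between these classes were not tested.

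The counts depended on scaling and on single libraries. With the authors' scaling alone, without TMM factors, the median of all regions moved to 0.22 and the split of later-intron regions became 1499 higher (8.15% of all regions were higher) and 70 lower (0.412% of all), or 95.5% higher against 72.0%. The count of 1756 became 2880 without WT replicate 1 and 3072 without WT replicate 2, and 315 without GrnKO replicate 1 and 427 without GrnKO replicate 2, in fits where the group with a single library is assumed to vary like the other. The count over all regions tested also rose without either WT replicate and fell without either GrnKO replicate. A like move in a gene or a list is thus not particular to it. Subtracting the change of the inputs left 0 regions past the threshold and reversed the sign at 427 of the 1756. The inputs held no tag at 41.6% to 90.9% of later-intron regions.

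**Figure D1:**
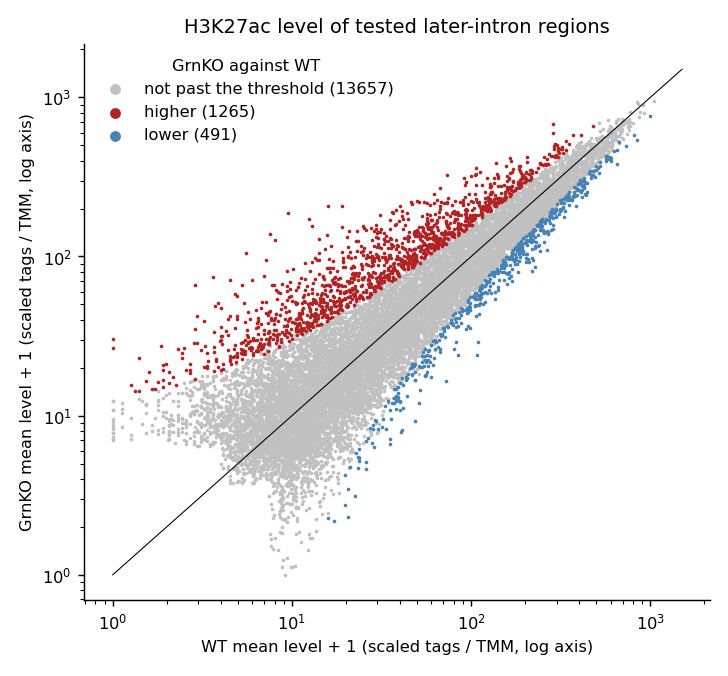
Mean H3K27ac level + 1 of the 15413 tested later-intron regions, WT on the horizontal and GrnKO on the vertical log axis, each point 1 region and the line marking equal levels. The 1265 higher regions spread over a wide range of WT levels, while the 491 lower regions lie mostly at WT levels above 100.

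Regions that fell started high in WT, while those that rose started near the level of the whole class. The median WT level of all tested later-intron regions was 29.2. The higher regions had a median level of 30.4 in WT and 92.5 in GrnKO and a median log2 change of 1.51 (quartiles 1.03 and 2.10). Of the 1265, 965 changed at least 2-fold, 366 at least 4-fold and 81 at least 8-fold, and 491 had a WT mean under 20 and 214 one of 100 or more. Both WT libraries held no tag at 2 of them and at most 3 tags at 20. The lower regions had medians of 161.6 in WT and 88.3 in GrnKO and a median log2 change of -0.87 (quartiles -1.20 and -0.66). Only 192 of the 491 changed at least 2-fold and 28 at least 4-fold, and 328 had a WT mean of 100 or more. Calls went with level: among tested regions in the lowest quartile of mean level 1.01% were called higher and 0.21% lower, and in the highest quartile 11.3% and 7.60%.

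The smallest p among higher regions belonged to intron 2 of Hpse (chr5:100709840-100710640), the gene of heparanase, an endoglycosidase that cleaves heparan sulfate and is stored in lysosomes. Its level was 11.3 and 18.3 in the WT libraries and 209 and 203 in the GrnKO libraries. That is a log2 change of 3.74 ± 0.29 (adjusted p = 1.10e-06), and the promoter region of Hpse also rose, from 8.69 to 92.4 (adjusted p = 5.64e-05). The input of GrnKO replicate 2 held 40.8 scaled tags in the Hpse region and the other inputs 0 to 13.4. Next came intron 2 of Cdh4 (chr2:179648650-179649450), the gene of R-cadherin, with 11.0 and 6.02 in WT and 201 and 170.0 in GrnKO (log2 change 4.34 ± 0.34, adjusted p = 1.10e-06). Gramd1b encodes a protein that carries cholesterol from the plasma membrane to the endoplasmic reticulum, and its intron 3 (chr9:40324117-40324917) went from 107 and 104 to 361 and 351 (log2 change 1.74 ± 0.17, adjusted p = 7.12e-06). 

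The other 7 of the leading higher regions were in Ascc2 intron 15 (nearest start Uqcr10), Lrguk intron 4, Gng7 intron 2, Shld1 intron 2, Gm19689 intron 2, Tnip1 intron 12 and Pinx1 intron 6, with log2 changes from 2.15 to 4.29 and adjusted p from 3.17e-06 to 1.05e-05. Tnip1 encodes a partner of A20 that restrains NF-kB signalling, and its region (chr11:54922713-54923513) had 16.4 and 7.60 in WT and 137 and 171 in GrnKO. Gpx3 had the nearest start to it, and encodes a secreted glutathione peroxidase. Gng7 encodes a G protein gamma subunit, and its region, nearest to the stress gene Gadd45b, had 19.6 and 16.5 against 144 and 159. Pinx1, an inhibitor of telomerase, had 3.13 and 6.02 against 94.8 and 114, and the input of WT replicate 1 held 144.7 scaled tags there, more than either WT H3K27ac library. Host promoters did not move with these regions throughout: the promoter of Gramd1b rose (log2 change 1.82), whereas those of Ascc2, Lrguk, Shld1, Tnip1, Gm19689 and Pinx1 did not pass the test (log2 changes -0.12 to 0.47).

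**Figure D2:**
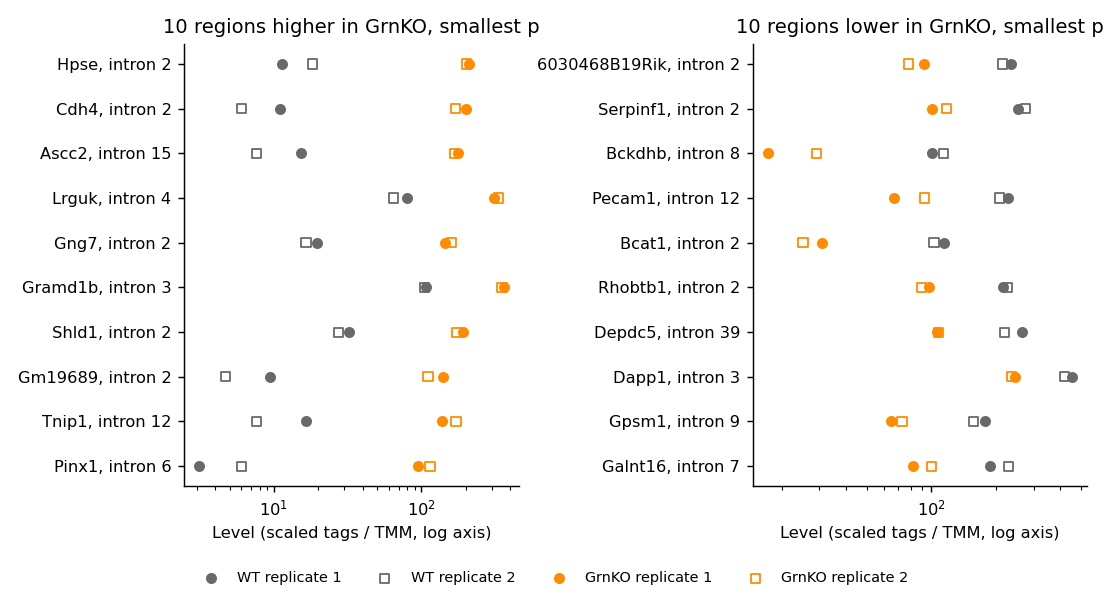
Level of the 10 higher and 10 lower later-intron regions with the smallest p, at most 1 per nearest gene, on log axes, with 1 symbol per library (filled circles replicate 1, open squares replicate 2, grey WT, orange GrnKO). The regions were chosen for groups that do not overlap, and the distance between groups is more than a factor of 10 for Hpse and less than a factor of 3 for most of the lower regions.

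Among lower regions the smallest p was in intron 2 of 6030468B19Rik (chr11:117799003-117799803), with 235 and 215 in WT and 91.9 and 78.0 in GrnKO (log2 change -1.40 ± 0.19, adjusted p = 0.000161). Its promoter fell as well (log2 change -1.43, adjusted p = 0.000191), whereas among the 10 leading lower regions the host promoters of Pecam1, Rhobtb1, Depdc5, Dapp1 and Gpsm1 did not pass (log2 changes -0.44 to 0.05, adjusted p from 0.155 to 0.963). Serpinf1, the gene of the secreted factor PEDF, went from 255 and 276 to 100.4 and 117 in intron 2 (chr11:75416609-75417409, log2 change -1.28 ± 0.18, adjusted p = 0.000173). Pecam1 encodes CD31, an adhesion molecule of endothelium and leukocytes, and intron 12 (chr11:106674381-106675181) had 227 and 208 in WT and 66.8 and 92.7 in GrnKO (log2 change -1.46 ± 0.21, adjusted p = 0.000213).

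Bcat1 encodes a cytosolic aminotransferase of branched-chain amino acids, and intron 2 (chr6:145040603-145041403) had 114 and 103 in WT and 30.8 and 25.1 in GrnKO (log2 change -1.92 ± 0.28). Bckdhb encodes a subunit of the mitochondrial dehydrogenase of branched-chain keto acids, and intron 8 (chr9:84027907-84028707) had 100.1 and 114 against 17.3 and 29.1 (log2 change -2.20 ± 0.31). The inputs of both WT replicates held 62.5 and 19.3 scaled tags at the Bcat1 region and 0 and 24.6 at the Bckdhb region, while the GrnKO inputs held 0. With the input effect subtracted their log2 changes were 2.90 and 0.43, neither past the threshold. The remaining 5 were in Rhobtb1, Depdc5 (a subunit of the GATOR1 complex that restrains mTORC1, with Ywhah as the nearest start), Dapp1 (an adaptor of B-cell and phosphoinositide signalling), Gpsm1 and Galnt16 (nearest start Erh), with log2 changes from -1.28 to -0.86.

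The strongest later-intron regions in WT changed little. These were in Ppcdc intron 3, BC049352 intron 4 (nearest start Mir7086), Inpp5d intron 2, Abi3 intron 3 (Gngt2) and Bach2 intron 3 (Bach2os), with mean WT levels from 878 to 1052. Inpp5d encodes SHIP1, a phosphatase that limits signalling from microglial receptors, and its region had 970.2 and 870.0 in WT and 789 and 800.3 in GrnKO (log2 change -0.21 ± 0.10, adjusted p = 0.21). BC049352 was the exception, with 1026 and 957 against 756 and 778 (log2 change -0.37 ± 0.10, adjusted p = 0.0225), a call lost under the authors' scaling (adjusted p = 0.840) and without GrnKO replicate 1 (0.362) or 2 (0.238). Without WT replicate 1 the Ppcdc region passed (0.0382), and without WT replicate 2 the Inpp5d region (0.0349).

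Changed regions were spread over many hosts, and some genes changed along much of their length. The 1755 changed regions with a known host fell in 918 of 4098 genes, of which 519 held 1 and 51 held 5 or more, and those 51 genes together held 343. Neighbouring regions in a gene share a locus, and some overlap, so they are not separate tests. Of all regions tested, 6.8% were higher and 2.92% lower. Rftn1, the gene of raftlin, a protein of lipid rafts, had the most: 17 of its 26 tested regions rose, none fell, and all 26 log2 changes were positive (median 1.35, range 0.47 to 2.92) over 135 kb. Its strongest change, in intron 3 (chr17:50089626-50090426), was from 8.60 and 16.2 in WT to 98.7 and 94.6 in GrnKO, and its promoter rose from 48.8 to 170 (log2 change 1.78). Without GrnKO replicate 1 or 2, 7 and 6 Rftn1 regions were called. The next were Aopep, an aminopeptidase gene, and Nav2 and Tns3, whose products bind microtubules and focal adhesions, with 10 higher regions each (of 26, 46 and 36 tested), and Cux1, a homeobox gene, with 9 of 22, tied with Tcf4 (9 of 53). The input of GrnKO replicate 2 held 55.1 scaled tags at the leading Tns3 region, which had 63.4 and 62.9 in WT and 157 and 170.3 in GrnKO. Without either GrnKO replicate 1 higher region was left in Tns3 and in Cux1, 4 in Nav2, and 2 or 5 in Aopep, while leaving out WT replicate 1 gave 17 in Aopep and 17 in Nav2.

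Foxn3, which encodes a forkhead repressor, had the most lower regions. Of 34 tested, 10 fell and none rose (against 2.92% lower and 6.8% higher of all regions), and 32 of the 34 log2 changes were negative (median -0.86). The leading one, in intron 3 (chr12:99314758-99315558), had 79.0 and 87.2 in WT and 37.0 and 33.7 in GrnKO. Rad51b, a DNA repair gene, followed with 7 lower of 40, then Zfp608 with 6 of 25, and Cdh23 and Dapp1 with 5 of 38 and 5 of 11, tied with Pecam1 (5 of 8). All 11 tested regions of Dapp1 had negative log2 changes (-1.24 to -0.14). In Cdh23, the gene of a large cadherin, the leading region lay in intron 53 and its nearest start was that of Psap, the prosaposin gene, and it had 794 and 879 in WT and 459 and 625 in GrnKO (log2 change -0.64 ± 0.13, adjusted p = 0.0041). These lower counts depended on single libraries and on scaling: without GrnKO replicate 1 or 2 no lower region was called in Foxn3, Rad51b or Zfp608, 0 and 1 in Cdh23 and 1 in Dapp1. Under the authors' scaling alone 1 was lower in Foxn3 and in Zfp608 and 0 in Rad51b, Cdh23 and Dapp1, and 30 of the 34 Foxn3 changes stayed negative. With no filter on tag counts 3 were lower in Foxn3, in Rad51b and in Dapp1, 5 in Zfp608 and 1 in Cdh23. On recovered reads edgeR called 6 lower in Foxn3 and DESeq2 7. Leaving out WT replicate 1 raised Cdh23 to 10, and leaving out WT replicate 2 raised Rad51b to 11.

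Both directions occurred within 16 genes. Rad51b had 2 higher regions beside its 7 lower ones, with log2 changes reaching 2.87, Tbc1d22a had 5 higher and 2 lower of 35, and Itgb5, Zmiz1 and Igf1r had 5, 5 and 4 higher and 1 lower each. Ptprc, the gene of CD45, had 2 higher and 1 lower of 17. Of all regions tested 6.8% were higher and 2.92% lower, and some of these counts, such as 2 higher of 40 in Rad51b and 1 lower of 49 in Itgb5, were near those shares. These genes were picked by their calls, so the mixture within them is a description.

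**Figure D3:**
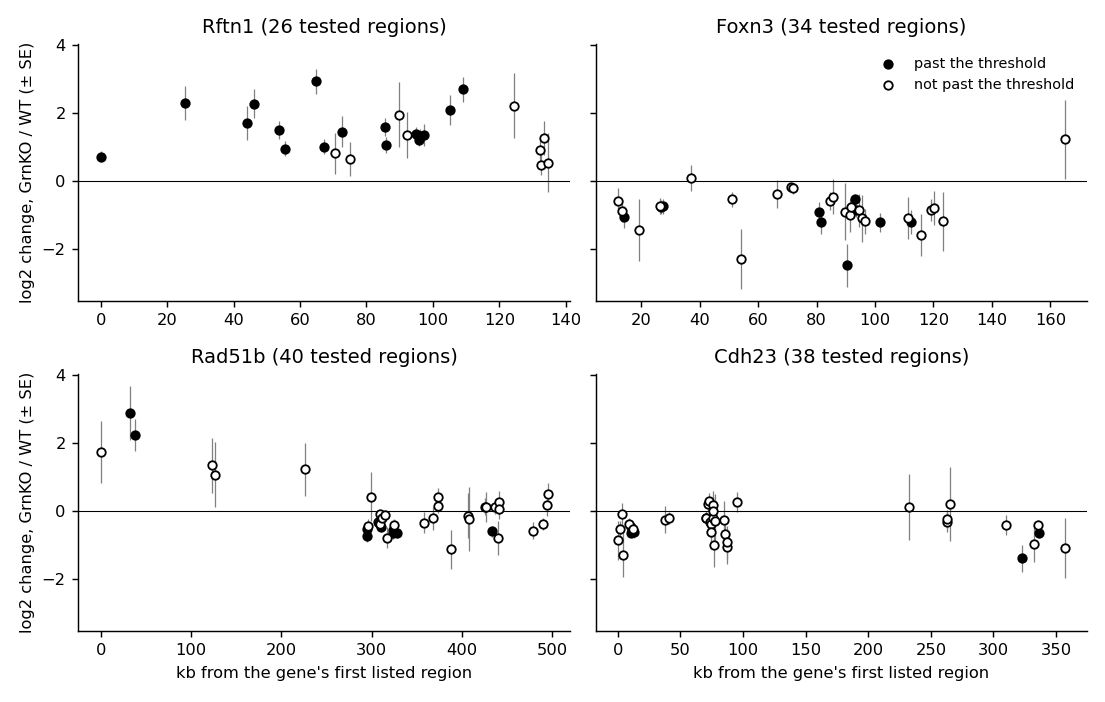
Log2 change ± SE of the tested later-intron regions of Rftn1, Foxn3, Rad51b and Cdh23 by position, in kb from the gene's first listed region (horizontal axis), with filled points past the threshold. All 26 regions of Rftn1 are above 0, 32 of 34 of Foxn3 are below 0, and Rad51b has its 2 higher regions at one end and its 7 lower ones elsewhere.

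Host promoters leaned the same way as the introns but seldom passed the test. Of 3079 genes with a tested later-intron region and a tested promoter region, 147 promoters were higher and 82 lower. Among 477 genes whose changed introns were all higher, 68 promoters were higher and 3 lower (median log2 change 0.18), and among 235 genes whose changed introns were all lower, 5 were higher and 18 lower (median -0.15). Where no later-intron region changed, 74 of 2356 promoters were higher and 61 lower (median -0.05). Across the 3079 genes the Pearson correlation between the median intronic change and the promoter change was 0.28, over genes that share the same 4 libraries. In 406 of the 477 and 212 of the 235 genes, the promoter did not pass the test.

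The share of changed regions differed little with position in the gene. It was 10.9% in intron 2, 11.3% in introns 3 to 4, 12.1% in introns 5 to 9, 10.9% in introns 10 to 19 and 12.9% from intron 20 on. In that last group 4.81% were lower and the median log2 change was -0.10. By distance from the nearest start, 9.96% changed within 5000 bp, 10.9% to 20000 bp, 11.0% to 50000 bp, 13.04% to 100000 bp and 12.6% beyond. Lower calls stayed between 3.02% and 3.48% in these distance groups, while higher calls went from 6.48% nearest the start to 10.0% between 50000 and 100000 bp. None of these differences was tested. At the edge of the rule, a Dhrs3 region at 1001 bp was inside (mean level 278 in WT and 371 in GrnKO) and a Fermt3 region at 1000 bp was outside (565 and 525).

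**Figure D4:**
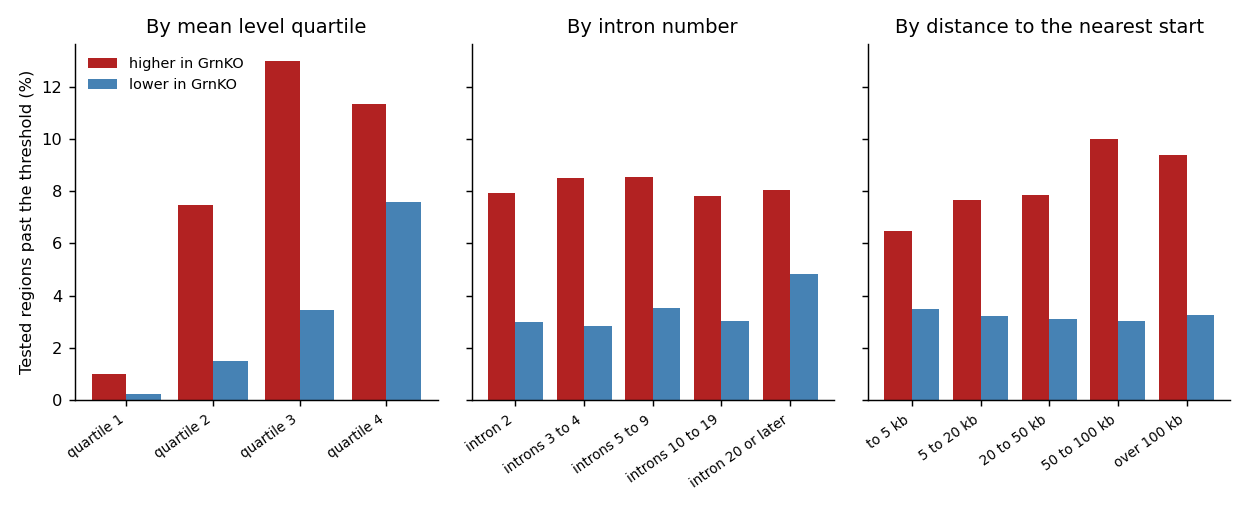
Percent of tested later-intron regions that were higher or lower in GrnKO, by quartile of mean level (quartile 1 is lowest), by intron number and by distance to the nearest start. Calls go from 1.01% higher and 0.21% lower in the lowest quartile of level to 11.3% and 7.60% in the highest, and vary far less with intron number or distance.

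Some later introns of lysosomal genes gained the mark. The list of lysosomal genes and MiT/TFE targets had 167 tested regions, of which 39, in 14 genes, rose (23.4%, against 6.8% of all regions) and none fell (against 2.92%), with a median log2 change of 0.20 against -0.0020 over all regions. The other 128 did not pass, and 15 of the 38 genes with a tested region had a negative median, the lowest being -0.98 in Fnip1, -0.96 in Man2b1 and -0.90 in Atp6v1e1, each with 1 tested region. Ctsd, the gene of the protease cathepsin D, held 8 of the 39, of 11 tested. The leading one, in intron 2 (chr7:142383298-142384098), had 141 and 132 in WT and 396 and 377 in GrnKO (log2 change 1.5 ± 0.16, adjusted p = 1.42e-05). Lipa, the gene of lysosomal acid lipase, held 6 of 8, and its leading region, in intron 3 (chr19:34521751-34522551), had 70.0 and 73.9 in WT and 224 and 209 in GrnKO (log2 change 1.58 ± 0.20, adjusted p = 6.48e-05). The Lipa promoter rose too (log2 change 0.87, limma adjusted p = 0.0144), whereas that of Ctsd did not pass (log2 change 0.42, adjusted p = 0.111). Others were in Tpcn1, a lysosomal channel (4 of 12), in the glycosidase and sulfatase genes Galc (3 of 4), Manba (2 of 2), Arsb (2 of 9), Galns (1 of 2) and Sgsh (1 of 1), and in the protease gene Lgmn (3 of 12). The 7 tested regions of Atp6v0a1 had none past the test. Counted by nearest gene instead of host, 33 of 161 rose and 3 fell. The count of 39 was 46, with 5 lower, without WT replicate 1 and 49, with 3 lower, without WT replicate 2, and it was 10 and 13, with none lower, without GrnKO replicate 1 or 2. DESeq2 called 1 lower. Ctsd had 4 higher regions without either GrnKO replicate, and Lipa 3 or 5.

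The list of genes of disease-associated microglia, the state described around plaques and in aged or degenerating brain, had 15 of 56 tested regions higher and none lower (26.8% higher, against 6.8% higher and 2.92% lower of all regions), with a median of 0.43 against -0.0020. The median WT level of the list was 50.4, against 32.2 over all regions. Of the 15, 8 were the Ctsd regions just given and 3 were in Atp6v0d2, a subunit of the proton pump, and both genes are also on the lysosomal list. The other 4 were in Colec12, a scavenger receptor (2 of 3), Cd9 (1 of 6) and Timp2, an inhibitor of metalloproteases (1 of 1). The Timp2 region, to which Usp36 had the nearest start, had 15.6 and 16.8 in WT and 61.4 and 82.8 in GrnKO (log2 change 2.07 ± 0.35). Tested regions of Itgax, Axl, Cd83, Myo1e and Ctsz did not pass, nor did the 2 of Csf1, whose median was -1.63. Leaving out either GrnKO replicate reduced the count of 15 to 5, and the Timp2 region did not pass without GrnKO replicate 2 (adjusted p = 0.0922).

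Homeostatic microglial genes had 10 lower regions of 222 tested and no higher one (4.50% lower, against 2.92% of all regions), in 8 genes, with a median of -0.19. Their tested regions were stronger, with a median WT level of 73.3 against 32.2 over all regions. Among later-intron regions, 3.45% were lower in quartile 3 of mean level and 7.60% in quartile 4, the highest. Whether the list differs from regions of like level was not tested. The levels summed over all 245 listed regions of the homeostatic genes were 32111 to 34005 in WT and 28119 to 29884 in GrnKO. Under the authors' scaling alone the groups overlapped, with 26501 and 35219 in WT and 30403 and 32335 in GrnKO. Slc2a5, the fructose transporter that marks microglia, had 300.3 and 258 in WT and 134 and 159 in GrnKO in intron 2 (log2 change -0.92 ± 0.17, adjusted p = 0.0020). Sall1, a transcription factor that keeps microglial identity, had 483 and 495 against 283 and 343 (log2 change -0.65 ± 0.14, adjusted p = 0.0049), and Bin1, an endocytic adaptor (nearest start A830052D11Rik), had 73.9 and 46.9 against 16.1 and 23.5 (log2 change -1.55 ± 0.37, adjusted p = 0.0114). Csf1r, Siglech and Mertk had 1 lower region each, and Elmo1 and Inpp5d 2 each. No region of Mef2c (32 tested) or Tgfbr2 (12) passed. The count of 10 moved with the settings: it was 4 with no filter and 22 (with 3 higher) with the replicate number as a block. As over all regions, calls were fewer without either GrnKO replicate and more without either WT replicate. The median of the list was -0.15 and -0.22 without GrnKO replicate 1 or 2, and -0.26 and -0.14 without WT replicate 1 or 2. Under the authors' scaling alone the count was 2 (with 1 higher) and the median of the list 0.03, still 0.19 below that of all regions. There the Slc2a5 and Sall1 regions did not pass (adjusted p = 0.103 and 0.394), nor did they without GrnKO replicate 1 (0.0902 and 0.232), where Bin1 was at 0.192.

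Lipid-handling genes had 16 higher and 2 lower of 155 (10.3% and 1.29%, against 6.8% and 2.92% of all regions, median -0.07), 6 of the 16 in Lipa, 4 in the endocytic receptor gene Lrp1, 3 in Ppard and 2 in Pparg, both nuclear receptors for fatty acids. The leading Pparg region had 30.9 and 16.8 in WT and 115 and 101 in GrnKO, but the input of WT replicate 1 held 345.7 scaled tags there. Ppard had 188 and 191 against 322 and 343 (log2 change 0.81 ± 0.15, adjusted p = 0.0021). The cholesterol exporters Abca1 and Abcg1 had none of 24 and none of 13 past the test. Myeloid transcription factor genes had 22 higher and 8 lower of 401 (5.49% and 2.00%, median 0.03), both below the shares of all regions. In that list Tcf4 had 9 higher of 53, Runx1 6 of 42, Runx2 3 of 9 and Foxp1 2 of 27, while Zfhx3 had 4 lower of 35 and Arid5b 3 of 30. Without GrnKO replicate 1 or 2, the lipid list had 4 and 6 higher and 0 lower, and without WT replicate 1 or 2 it had 19 and 24 higher and 4 and 10 lower. Without GrnKO replicate 1 or 2, the transcription factor list had 0 and 1 higher and 0 and 1 lower. Without WT replicate 1 or 2 the transcription factor list had 36 and 44 higher and 23 and 16 lower, and under the authors' scaling 29 and 0. The Ppard region did not pass without GrnKO replicate 1 (adjusted p = 0.0623) or 2 (0.0929).

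Adhesion and cytoskeleton genes had 11 higher and 13 lower of 235 (4.68% and 5.53%, against 6.8% and 2.92% of all regions, median -0.11). The median WT level of the list was 52.8, against 32.2 over all regions. Pecam1 held 5 of the 13, of 8 tested, and the integrin gene Itga9 3 of 13, while Itgb5 had 5 higher of 49 and Arhgap22 4 of 29. The inflammatory list had 4 higher and 1 lower of 71 (5.63% and 1.41%), both below the shares of all regions. Its higher regions were in Tnf, Tnfaip3 (which encodes A20), Irak2 and Tnfrsf1b, and the lower one in Il1a. The Tnf region had 92.3 and 93.5 in WT and 177 and 197 in GrnKO (log2 change 1.00 ± 0.19, adjusted p = 0.0028), and the Tnf promoter rose alike (log2 change 1.15). The promoters of Tnfaip3 and Irak2 did not pass (log2 changes -0.10 and -0.21, limma adjusted p = 0.750 and 0.554). The Tnf region did not pass without GrnKO replicate 1 (adjusted p = 0.0620) or 2 (0.112). Without GrnKO replicate 1 or 2, the adhesion list had 0 higher and 3 and 5 lower regions, and the inflammatory list 0 higher and 0 and 1 lower. The authors' scaling gave 8 higher and 5 lower adhesion regions. Leaving out WT replicate 1 or 2 gave 19 and 22 higher and 20 and 20 lower adhesion regions, and 4 and 7 higher and 2 and 2 lower inflammatory ones. Antigen presentation and interferon genes had 10 and 7 tested regions, too few to describe, with none past the threshold.

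**Figure D5:**
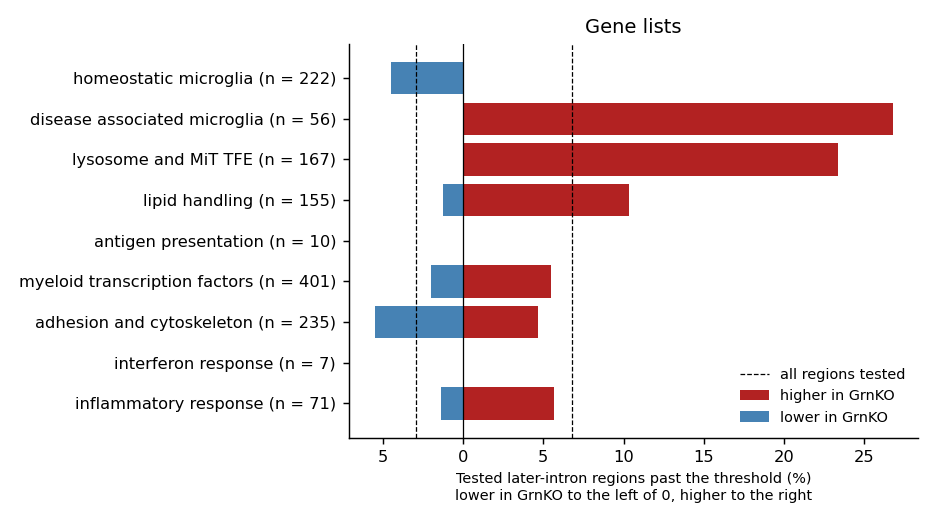
Percent of tested later-intron regions of each gene list that were higher (right of 0) or lower (left of 0) in GrnKO, with the number tested in brackets and dashed lines at the 6.8% higher and 2.92% lower of all regions. The lysosomal list (39 of 167) and the disease-associated list (15 of 56) exceed the line for higher calls most, and the homeostatic list had 10 lower and 0 higher.

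Markers of other brain cells were checked in the same regions. Levels summed over all listed later-intron regions of microglial markers were 8284 to 8568 in WT and 7004 to 7397 in GrnKO, with 4 of 44 tested regions lower (9.09%, against 2.92% of all regions). The median WT level of those 44 regions was 141.5, and in the highest quartile of mean level 7.60% of later-intron regions were lower. Under the authors' scaling alone the sums overlapped (6837 and 8874 in WT, 7573 and 8004 in GrnKO) and the count of lower regions was 0. It was 0 and 2 without GrnKO replicate 1 or 2, and 9 and 7, with 1 and 2 higher, without WT replicate 1 or 2. Neuronal markers summed to 70.4 to 75.4 in WT and 48.9 to 62.5 in GrnKO, endothelial markers to 147 to 153 and 122 to 130.1, and monocyte and neutrophil markers to 348 to 441 and 341 to 375, with none of 5, 7 and 5 tested regions past the test. Under the authors' scaling the sums of these 3 lists overlapped between genotypes, while those of oligodendrocyte, astrocyte and border macrophage markers did not and were higher in GrnKO. Lymphocyte markers summed to 4.98 to 17.6 and 8.47 to 12.2, and none of their regions had enough tags to be tested. Oligodendrocyte markers summed to 1338 to 1363 in WT and 1819 to 1902 in GrnKO, nearly all of it in Mbp, where 2 of 13 tested regions rose. These 2 were 13.3% of the 15 tested oligodendrocyte regions, against 6.8% of all regions. Mog had 9.39 and 13.1 in WT and 0.85 and 0 in GrnKO, Mag 10.2 and 48.2 against 16.7 and 20.3, and Myrf held no tag in any H3K27ac library. Astrocyte markers summed to 1494 to 1687 in WT and 1542 to 1717 in GrnKO, which overlap, whereas under the authors' scaling they came to 1392 and 1547 against 1667 and 1858. Of 19 tested astrocyte regions, 2, in S100b, were higher (10.5%, against 6.8% of all regions) and 1, in Slc1a3, was lower (5.26%, against 2.92%). Border macrophage markers summed to 529 to 551 and 615 to 652, and 1 of 12 tested regions, in Ms4a7, rose (8.33%, against 6.8% of all regions). Mean sums in WT and GrnKO were 10.6 and 54.7 for Ms4a7, 154 and 181 for Folr2 and 186 and 214 for Stab1. They were nearly equal for Mrc1 (176 and 177). Those of Cd163 (2.62 and 1.21), Lyve1 (3.40 and 0.84) and F13a1 (7.31 and 5.22) were low and went down. Fewer nuclei of a type and less acetylation per nucleus cannot be told apart in these pools, and the part of other cells in the changes above was not tested.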

How the data were processed

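H3K27ac ChIP-seq and input were sequenced from PU.1+ OLIG2- NEUN- nuclei of 2 WT and 2 GrnKO pools, and all 8 libraries were used. The deposited values are a signal: per the file headers, the authors counted tags in 800 bp around merged reproducible ATAC-seq peaks and scaled them to 10000000 tags per library. The submitters' processing notes name Bowtie2, HOMER, DESeq2 and the build mm10. Their roles, and the handling of duplicates, are not given in the sources used here. Multiplying by the library total returned whole read ends (2 per tag, within 0.1) for 100% of values.

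Levels were scaled tags divided by TMM factors (edgeR 4.0.16). Regions passing filterByExpr (minimum 10) were tested on log2(level + 1) with limma 3.58.1 with a trend (R 4.3.3), WT and GrnKO H3K27ac libraries only, with Benjamini-Hochberg adjustment over all 80728 tested regions and a threshold of 0.05. The test was chosen for the scaled unit. P-values rest on the spread between 2 pools per group, with each region's variance drawn toward a trend fitted over all tested regions. Replicate numbers were taken as names of the pools and not as pairs. Hosts and start windows came from RefSeq GRCm38.p6: of 97706 regions compared, the start implied by the deposited table lay within 100 bp of a window start for 94.6%. The sequences of the intronic regions themselves were not analysed here.

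Named regions were the 10 higher and 10 lower with the smallest p and no overlap between groups (at most 1 per nearest gene), the 5 strongest in WT, the leading region of the 5 genes with most calls in each direction, and up to 3 regions per gene list. Start windows and Grn stand outside this rule. The members, lists and tests were chosen with earlier results of these data known. Alternatives were other scalings, filters, pseudocounts and thresholds, edgeR and DESeq2 1.42.0 on recovered reads, a replicate block, subtraction of the input effect and each library left out. The test was tried on simulated data. With 2 libraries per group, a region that did not pass may still differ.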

Additional observations from a re-analysis of the deposited data

How the results depend on the processing

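Over the alternatives run on the 62 named regions (49 of them where overlapping regions were dropped), 782 values kept their direction and side of the threshold, 120 lost and 2 gained the threshold, and 13 changed sign. Under the authors' scaling alone 70 later-intron regions were lower, 95.5% of calls were higher and the median log2 change was 0.21. With no filter beyond dropping regions without a read, 227 were lower and 82.4% of calls higher. The median was -0.029 with edgeR on recovered reads, -0.028 with edgeR on whole tags (an alternative chosen after seeing the data) and -0.035 with DESeq2. An adjusted p under 0.1 gave 878 lower, a change of at least 2-fold 1157 calls with 192 lower and 83.4% higher, and the regions whose host is the nearest gene, a smaller set by construction, 1123 calls (822 higher, 301 lower).

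Leaving out 1 library at a time gave 315 to 3072 calls, 272 to 2110 higher and 43 to 962 lower, 66.8% to 86.3% higher, and medians from -0.024 to 0.028. For the gene lists it gave 10 to 49 higher lysosomal, 5 to 19 higher disease-associated and 0 to 20 lower homeostatic regions. The homeostatic count was 2 under the authors' scaling and 4 with no filter.

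With the replicate block 2535 regions were called, 857 of them lower, all 1756 of the main calls among them, and 22 homeostatic regions were lower and 3 higher. Deviations of same-numbered libraries correlated at 0.0070, which does not settle whether pools with the same number were handled together.

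Subtracting the input effect left no region called in either direction (limma), with 1237 at an unadjusted p under 0.05, a median of -0.35 and 0 calls in the 3 lists. The inputs alone had 0 calls and 280 at an unadjusted p under 0.05, and up to 90.9% of regions without a tag. In that subtraction 427 of the 1756 changed sign, among them Nav2 (-0.52), Aopep (-0.30), Tns3 (-3.64), Timp2 (-0.33), Cux1 (-1.85), Ppard (-0.65), Tnf (-0.62), Arhgap22 (-1.75), Itpr1 (-0.57), Bckdhb (0.43), Bcat1 (2.90), Zfp608 (1.14) and BC049352 (2.01). The median ratio to input was 18.8 in WT and 19.5 in GrnKO over tested regions, and 2.24 and 2.25 with 5 added. Apart from the constructions named, the cause of these moves was not tested.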
